A study of Mus musculus with 12 samples.

Results

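The proteasome genes of the mouse were followed across normal liver and liver tumors with and without a working Setd2 gene. A gene was taken when its symbol begins with Psma, Psmb, Psmc, Psmd, Psme, Psmf or Psmg and a digit, also where several names share an entry of the table. The rule matched 51 entries. Psme3 has 2 of them, and the entry with the higher mean was used, which left 50 genes of 24553 entries. Values are FPKM, fragment numbers divided by transcript length and by the mapped fragments of the library. Tests were limited to entries with 1 FPKM or more in 3 or more libraries, a filter that 47 of the 50 genes and 11671 entries in all passed.

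The 12 libraries form 4 groups of 3. WT liver is normal liver of wild-type males aged 8 months that received no carcinogen, and KO liver is the same from mice labelled as Setd2 knockout. WT tumor and KO tumor are liver tumors of wild-type and Setd2 knockout mice injected with DEN (diethylnitrosamine, a liver carcinogen) at 25 mg/kg when 2 weeks old and killed after 8 months. Titles of the knockout samples read cKO. The labels do not name the cells in which Setd2 was deleted, the driver of the deletion or the exons removed. Tumor and normal liver therefore differ in DEN exposure as well as in tissue, and these cannot be told apart. Setd2 encodes the enzyme that trimethylates lysine 36 of histone H3.

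Setd2 itself lay between 3.84 and 4.84 FPKM in WT liver and between 1.32 and 1.93 in KO liver, a log2 change of -1.05 ± 0.14 (SE, n = 3 against 3, limma adjusted p = 0.0108). It lay between 3.61 and 4.40 in WT tumors and between 1.90 and 3.14 in KO tumors, a difference of -0.57 ± 0.19 that was not called (adjusted p = 0.188). FPKM summed to between 423498 and 719538 per library, and 10233 to 11620 entries reached 1. Of 12 hepatocyte markers, 11 passed the filter and summed to between 12130 and 42131 FPKM per library. The other, albumin (Alb), is listed at 0 in 11 libraries and at 14256 FPKM in KO tumor 2, so a listed 0 can be a failed estimate, and Alb was left out of the sums. Read depth is not in the tables and is unknown.

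The proteasome is the protease that degrades proteins tagged with ubiquitin. Its 20S core is a stack of rings of alpha (Psma) and beta (Psmb) subunits, of which Psmb5, Psmb6 and Psmb7 carry the active sites, and a 19S cap of ATPases (Psmc) and other subunits (Psmd) recognizes and unfolds the substrate. Interferons replace the active subunits by Psmb8, Psmb9 and Psmb10 in newly built cores, which makes the immunoproteasome, and the activators Psme1 and Psme2 form the PA28 ring that can take the place of the cap. Liver parenchyma carries mainly the constitutive form, leukocytes mainly the immunoproteasome.

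The 31 constitutive subunits of the 20S core and the 19S cap all passed the filter, with means over the 12 libraries from 37.7 FPKM for Psmd14, the deubiquitinase of the cap, to 193 FPKM for the beta subunit Psmb4. The 14 constitutive core genes had a median mean of 134 FPKM and the 17 cap genes 61.5 FPKM, both per length. The 4 chaperones that assemble the core, Psmg1 to Psmg4, lay between 18.0 and 23.0 FPKM. The 3 cap chaperones, Psmd5, Psmd9 and Psmd10, lay between 12.6 and 27.0. Of the activators, Psme1 had the highest mean (121 FPKM), followed by Psme2 (71.5), Psme4 (48.6), the core activator PA200, and Psme3 (27.3), which forms the nuclear PA28 gamma ring. The inhibitor Psmf1 (PI31) had 7.84 FPKM. Psmb5 shares its entry with Mir686. Psme2b shares its entry with 9930111J21Rik1 and 9930111J21Rik2, so its values cannot be assigned to Psme2b alone.

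Promoter windows of 300 bases, 250 before to 50 after a gene's start, were taken from RefSeq on GRCm38.p6, and 42 of the 50 genes had one. The 4 windows below are shown because the expression results turn on their genes: Psmb8 and Psmb9, which flank Tap1 on chromosome 17, the constitutive subunit Psmb5 that Psmb8 replaces, and the activator Psme1. Capitals mark matches to 3 motifs searched on both strands, the interferon-stimulated response element (GAAA, a gap of 2 bases, GAAA), the gamma-activated site TTCNNNGAA and the antioxidant response element core TGACNNNGC. The windows are Psmb8 (chr17:34197945-34198244, plus strand), Psmb9 (chr17:34187281-34187580, minus strand), Psmb5 (chr14:54617946-54618245, minus strand) and Psme1 (chr14:55578244-55578543, plus strand).
Psmb8: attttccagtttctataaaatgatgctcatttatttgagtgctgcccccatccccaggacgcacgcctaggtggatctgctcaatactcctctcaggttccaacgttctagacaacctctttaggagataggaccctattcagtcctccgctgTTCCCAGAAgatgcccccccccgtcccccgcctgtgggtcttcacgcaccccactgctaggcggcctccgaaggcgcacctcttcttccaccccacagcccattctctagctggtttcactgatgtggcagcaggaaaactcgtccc
Psmb9: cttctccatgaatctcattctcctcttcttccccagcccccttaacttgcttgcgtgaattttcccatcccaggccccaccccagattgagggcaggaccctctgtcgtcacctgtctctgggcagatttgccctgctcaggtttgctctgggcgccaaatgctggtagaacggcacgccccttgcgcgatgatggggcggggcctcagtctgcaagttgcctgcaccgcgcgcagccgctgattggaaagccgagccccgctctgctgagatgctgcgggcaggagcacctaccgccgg
Psmb5: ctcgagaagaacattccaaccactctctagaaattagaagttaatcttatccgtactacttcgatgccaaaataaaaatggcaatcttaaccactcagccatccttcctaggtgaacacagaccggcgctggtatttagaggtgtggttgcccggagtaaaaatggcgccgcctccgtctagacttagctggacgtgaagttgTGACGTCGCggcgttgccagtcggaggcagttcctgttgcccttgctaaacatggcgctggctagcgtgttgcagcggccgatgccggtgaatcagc
Psme1: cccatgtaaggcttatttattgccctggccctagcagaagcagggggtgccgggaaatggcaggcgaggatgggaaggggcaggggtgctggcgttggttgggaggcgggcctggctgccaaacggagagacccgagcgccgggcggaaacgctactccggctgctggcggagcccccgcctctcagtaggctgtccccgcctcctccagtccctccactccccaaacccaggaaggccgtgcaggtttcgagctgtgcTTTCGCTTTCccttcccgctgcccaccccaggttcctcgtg
The capitals in Psmb8 are TTCCCAGAA, a gamma-activated site match 97 to 89 bases before the start. In Psme1 they are TTTCGCTTTC, the other strand of the interferon-stimulated response element, at bases 10 to 19 after the start. In Psmb5 they are TGACGTCGC, an antioxidant response element match 47 to 39 bases before the start. Starts here are those of RefSeq. The windows of Psmb8 and Psmb9 lie wholly within the GENCODE spans given below for these genes, whose outermost starts are farther upstream. Psmb9 has none of the 3 in its window, 275 bases of which are shared with the window of Tap1, a peptide transporter gene read in the opposite direction.

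Among all 32851 windows, 3.44% held the interferon-stimulated element, 8.30% the gamma-activated site and 12.4% the antioxidant core. Of the members, Psmb3, Psmd4, Psmd9, Psme1 and Psmg4 held the first, Psmb8, Psmd2 and Psmg1 the second, and Psmb5, Psmb6, Psmc6, Psmd12, Psmd9 and Psme4 the third. A match describes letters in the window and does not show binding.

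In normal liver, loss of Setd2 went with higher Psmb8 and Psmb9. Smaller rises of core, cap and core assembly genes lost their calls once transcript length was allowed for, as given below. Changes are log2 differences of FPKM + 1 ± SE, fitted with limma on the 6 libraries of a comparison, and a gene is said to have risen or fallen, or to be called, at a Benjamini-Hochberg adjusted p below 0.05 over all 11671 entries. Of the 47 tested genes 9 rose and 1 fell. Among all entries 9.33% rose and 8.77% fell, so the rising share of the proteasome genes (19.1%) was above the background and the falling share (2.13%) below it. The median change of the 47 was 0.19, beside 0.03 over all entries, and 38 of the 47 were above 0. Every KO liver lay above every WT liver for 22 of the 47 genes, beside 21.9% of all entries, and every KO liver lay below for 3, Psmd3, Psmd14 and Psme3, beside 20.7%.

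Psmb9 (chromosome 17, 34181987 to 34187764, minus strand, GRCm38) encodes the inducible subunit that replaces Psmb6. It had 14.4, 18.2 and 13.5 FPKM in WT livers and 35.1, 23.5 and 36.9 in KO livers. The groups did not overlap, and the change was 0.99 ± 0.20 (adjusted p = 0.023). Psmb8 (chromosome 17, 34197721 to 34201454, plus strand) replaces Psmb5 and had 24.5, 35.2 and 22.7 FPKM in WT livers and 48.5, 41.6 and 51.5 in KO livers. These groups too were apart, with a change of 0.78 ± 0.18 (adjusted p = 0.032). Psmb10 (chromosome 8, 105935735 to 105938444, minus strand), which replaces Psmb7, did not follow, with 26.9, 33.6 and 30.02 FPKM in WT livers and 34.02, 18.97 and 28.6 in KO livers, overlapping groups and a difference of -0.18 ± 0.21 (adjusted p = 0.569). Its lowest value was in KO liver 2, which also had the lowest Psmb8 and Psmb9 of the KO livers.

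The constitutive partners were not called. Psmb5, the chymotrypsin-like subunit, had 147, 157 and 138 FPKM in WT livers and 175, 196 and 174 in KO livers, a difference of 0.30 ± 0.11 (adjusted p = 0.0899). Psmb6, the caspase-like subunit, had 135, 143 and 126 against 169.6, 172 and 169.7, a difference of 0.34 ± 0.10 (adjusted p = 0.0537). All KO livers were above all WT livers for both genes. Psmb7, the trypsin-like subunit, overlapped, with 184, 190.1 and 174 against 204, 207 and 172 and a difference of 0.09 ± 0.12 (adjusted p = 0.613).

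**Figure D1:**
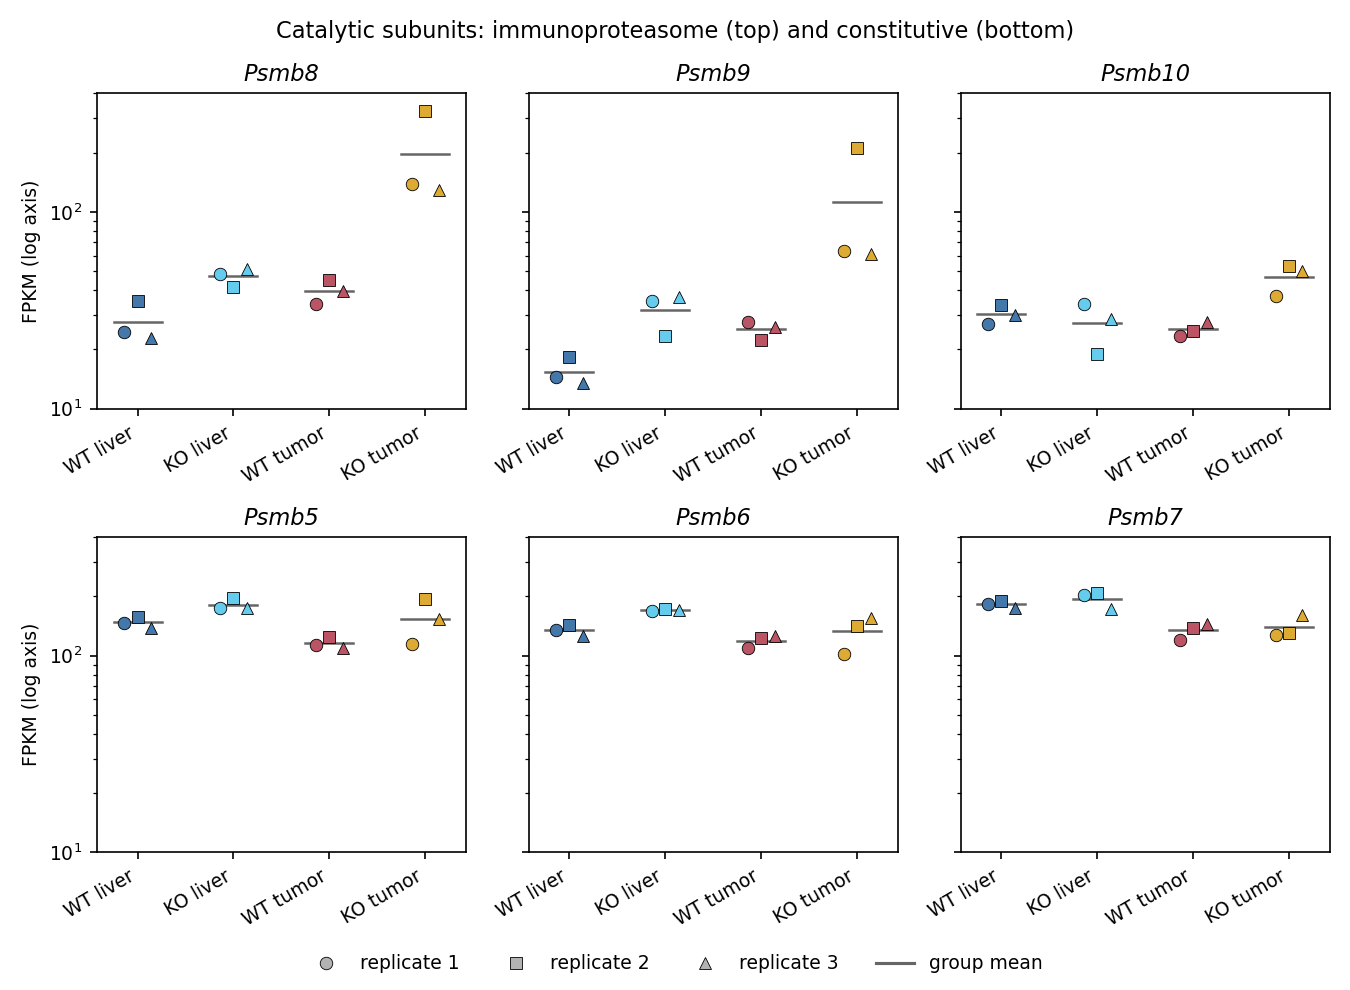
FPKM of the 3 constitutive and the 3 inducible catalytic genes in each of the 12 libraries, by group, on a log axis in FPKM; points are libraries, symbols replicates and lines group means (n = 3). Psmb8 and Psmb9 stand higher in KO liver than in WT liver and highest in KO tumors, where KO tumor 2 reaches 326 FPKM of Psmb8 and 212 FPKM of Psmb9.

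The 4 assembly chaperones of the core lay higher in every KO liver than in any WT liver, and 3 of them rose. They guide the alpha ring together. Psmg2 had 14.4, 14.5 and 14.1 FPKM in WT livers and 21.8, 18.6 and 24.9 in KO livers, a rise of 0.56 ± 0.13 (adjusted p = 0.0317). Psmg4 had 14.4, 17.05 and 13.8 against 20.3, 20.6 and 22.01 and rose by 0.45 ± 0.12 (adjusted p = 0.0427). Psmg1 had 18.2, 21.9 and 18.96 against 24.7, 26.8 and 29.9 and rose by 0.44 ± 0.13 (adjusted p = 0.0498). Psmg3, with 19.4, 17.6 and 17.5 against 23.7, 20.9 and 29.5, was not called, at 0.41 ± 0.15 (adjusted p = 0.0869). The median change of the 4 was 0.45.

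Of the 31 constitutive core and cap subunits, 4 rose and none fell, and the median change was 0.13. The alpha subunit Psma6 went from 143 ± 14.1 to 198 ± 15.9 FPKM (SD, n = 3), a rise of 0.47 ± 0.12 (adjusted p = 0.0412). The beta subunit Psmb3 went from 122 ± 4.96 to 164 ± 13.7 FPKM, a rise of 0.43 ± 0.11 (adjusted p = 0.0386). The cap ATPase Psmc3 went from 69.8 ± 4.23 to 97.5 ± 12.6 FPKM, a rise of 0.47 ± 0.13 (adjusted p = 0.046). The cap subunit Psmd13 went from 51.3 ± 4.38 to 68.9 ± 0.09603 FPKM, a rise of 0.42 ± 0.10 (adjusted p = 0.037). In the other direction, Psmd14 had 41.5, 39.8 and 45.4 FPKM in WT livers and 35.6, 36.9 and 29.8 in KO livers, apart but not called, at -0.31 ± 0.12 (adjusted p = 0.115).

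The activators split. Psme3 (chromosome 11, 101316213 to 101323537, plus strand) fell, from 33.8, 35.4 and 34.5 FPKM in WT livers to 25.9, 26.1 and 27.7 in KO livers, by 0.37 ± 0.10 (adjusted p = 0.0427) on the log2 scale. The groups did not overlap. The other entry under the name Psme3, not used, held between 2.26 and 28.3 FPKM over the 12 libraries. The sum of both entries was 55.7, 42.6 and 54.3 FPKM in WT livers and 30.04, 54.4 and 48.1 in KO livers, which overlap, so the fall is that of the entry used. Psme1 had 91.5, 127 and 103 FPKM against 129, 103 and 135, overlapping, with a difference of 0.19 ± 0.16 (adjusted p = 0.428). Psme2 had 58.6, 77.1 and 62.1 against 84.2, 82.5 and 80.1, apart, with a difference of 0.32 ± 0.13 (adjusted p = 0.11). Psme4 had 50.3, 57.2 and 51.01 against 57.7, 60.3 and 67.1, also apart, with a difference of 0.22 ± 0.11 (adjusted p = 0.194).

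Apart from Psmb8 and Psmb9, the rises lost their calls once transcript length was allowed for. The longest transcript of the tested proteasome genes has a median of 1907 bases, beside 3238 for all tested entries with a length (96.8% of them). With each library's trend of FPKM with length removed, the median change of the 47 genes in normal liver fell from 0.19 to 0.06 and 2 genes rose, Psmb9 (0.96, adjusted p = 0.0231) and Psmb8 (0.64, adjusted p = 0.0415), beside 6.58% of all entries. Psme3 still fell (-0.42, adjusted p = 0.0336), beside 6.51% of all entries. Psmg1 to Psmg4, Psma6, Psmb3, Psmc3 and Psmd13 were then not called. By GENCODE vM21, 19 of the 50 genes, Psmb8 to Psmb10 among them, share part of their span with a gene of the opposite strand, and the kit keeps no strand, so reads of the 2 genes cannot be told apart there.

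**Figure D2:**
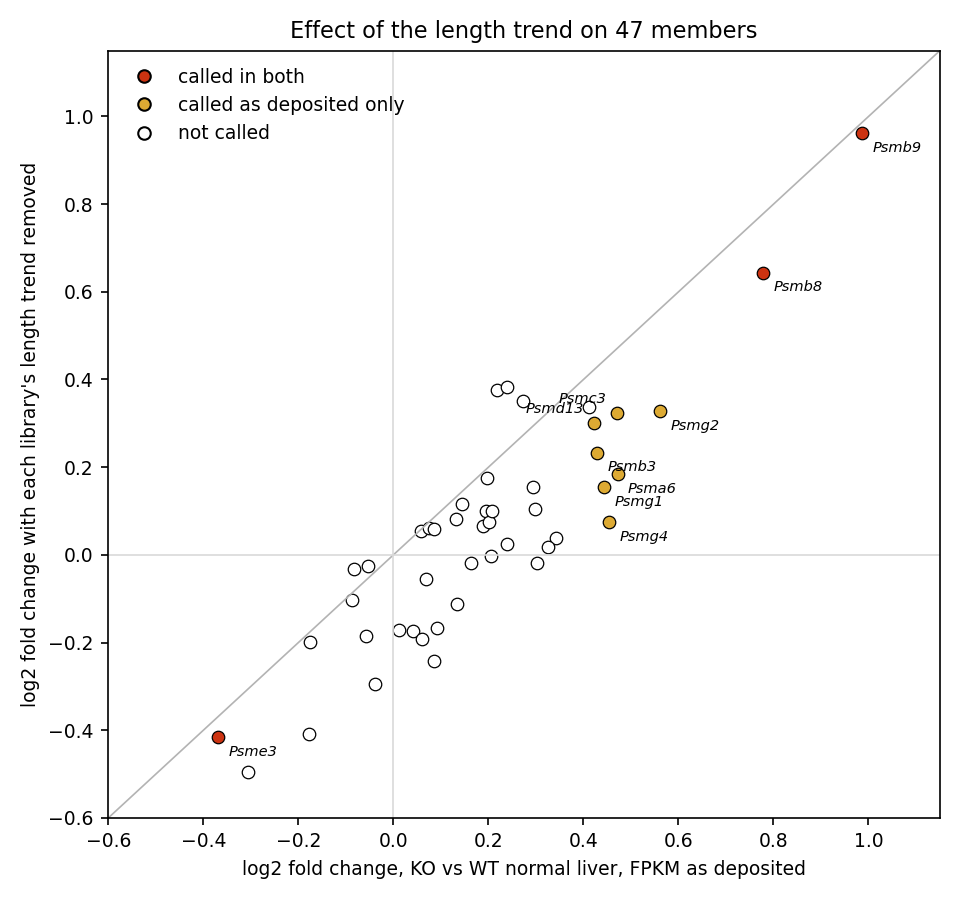
Log2 fold change between KO and WT normal liver of the 47 tested genes, with FPKM as deposited (horizontal) and with each library's length trend removed (vertical); the diagonal marks equal values and fill marks the calls. Psmb9, Psmb8 and Psme3 are called both ways, while the 7 other rising genes drop below the diagonal and lose the call.

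The calls in normal liver depend on single libraries. No proteasome gene was called without WT liver 1, WT liver 3 or KO liver 3, 2 were called without WT liver 2 or KO liver 1, and 3 without KO liver 2. Calls over all 11671 entries dropped too, from 1089 higher and 1024 lower with every library kept. In the same order of libraries, 548, 132, 373, 323, 1082 and 480 entries were called higher. In that order, 626, 108, 281, 298, 882 and 301 were called lower. Psmb9 was called in 3 of the 6 fits with 5 libraries (adjusted p from 0.0257 to 0.0849) and Psmb8 in 1 (0.0331 to 0.107), with changes from 0.87 to 1.19 and from 0.66 to 0.96. Both also lost the call in 1 fit of all 12 libraries (adjusted p = 0.128 for Psmb9 and 0.13 for Psmb8), where Psmg2 alone was called (0.0391), and with no filter on low values (0.0684 and 0.0843). The fit of all 12 libraries called 527 of 11671 entries higher and 617 lower.

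In tumors, the largest proteasome differences between genotypes were those of the immunoproteasome, and none passed the test. No proteasome gene was called in either direction, beside 0.0771% of all entries called. At an unadjusted p below 0.05, 5 of 47 genes were higher in KO tumors (10.6%, beside 10.9% of all entries) and 1 was lower (2.13%, beside 6.73%), shares at or below the background. The groups were apart with KO above for 6 genes, Psma2, Psmb8, Psmb9, Psmb10, Psme1 and Psme2b, beside 13.8% of all entries. KO was below for Psma3 and Psmd6, beside 10.1%. The median difference was 0.07, beside 0.02 over all entries, and it changed sign under median-of-ratios scaling (-0.0021) and with the length trend removed (-0.02).

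Psmb8 had 33.8, 45.1 and 39.6 FPKM in WT tumors and 139, 326 and 129 in KO tumors, a difference of 2.17 ± 0.37 (adjusted p = 0.0734). Psmb9 had 27.5, 22.5 and 26.1 against 63.5, 212 and 61.4, a difference of 1.86 ± 0.47 (adjusted p = 0.128). In both, every KO tumor lay above every WT tumor, and KO tumor 2 had the highest value. Psmb10 had 23.4, 24.8 and 27.7 against 37.4, 52.9 and 50.4, apart, with a difference of 0.85 ± 0.19 (adjusted p = 0.109). Psme1 had 76.96, 93.7 and 104 against 139.8, 171 and 176, apart, with a difference of 0.82 ± 0.21 (adjusted p = 0.128). Psme2, the partner of Psme1 in the PA28 ring, had 55.6, 56.2 and 60.8 against 59.7, 96.2 and 85.1, overlapping, with a difference of 0.45 ± 0.22 (adjusted p = 0.355). The alpha subunit Psma3 was the largest difference in the other direction, with 63.8, 55.7 and 67.3 FPKM in WT tumors and 30.6, 42.6 and 48.3 in KO tumors, a difference of -0.63 ± 0.22 (adjusted p = 0.208).

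None of the 31 constitutive subunits was called between KO and WT tumors, and 22 were above 0 with a median of 0.06. Under median-of-ratios scaling 13 were above 0 and the median was -0.01. Psmb5 had 113, 124 and 109.6 FPKM in WT tumors and 114, 195 and 153 in KO tumors, overlapping, with a difference of 0.38 ± 0.24 (adjusted p = 0.465). Psmb6 had 109, 123 and 126 against 102, 142 and 155, a difference of 0.14 ± 0.22 (adjusted p = 0.79). Psmb7 had 121, 139 and 145 against 127, 130.0 and 160.2, a difference of 0.04 ± 0.20 (adjusted p = 0.934). Psmg1 (-0.25) and Psmg3 (-0.25) were lower in the KO mean with overlapping groups. Psme3 (0.03) and Psme4 (-0.06) overlapped too.

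The tumor result depends on the estimate of the spread. In 1 fit of all 12 libraries, where the groups share a variance, 5 genes were called higher in KO tumors, beside 5.97% of all entries: Psmb8 (adjusted p = 0.00471), Psmb9 (0.0176), Psme1 (0.0221), Psmb10 (0.0311) and Psme2b (0.0333). Without KO tumor 3, Psmb8 was called with a change of 2.41 (adjusted p = 0.0455), and without KO tumor 2 its difference was 1.75.

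The balance between inducible and constitutive subunits was read as FPKM of the inducible gene per 100 FPKM of its counterpart in the same library, which no scaling of a library changes. Psmb8 per 100 of Psmb5 was 16.6, 22.4 and 16.5 in WT livers and 27.7, 21.2 and 29.5 in KO livers. It was 29.99, 36.4 and 36.1 in WT tumors and 122, 167 and 84.2 in KO tumors. All 3 KO tumors thus lay above every other library, and in KO tumors 1 and 2 Psmb8 exceeded Psmb5. Psmb9 per 100 of Psmb6 was 10.7, 12.8 and 10.8 in WT livers and 20.7, 13.7 and 21.7 in KO livers. It was 25.2, 18.3 and 20.7 in WT tumors and 62.01, 149 and 39.6 in KO tumors. Psmb10 per 100 of Psmb7 was 14.6, 17.7 and 17.3 in WT livers and 16.7, 9.15 and 16.6 in KO livers, which overlap. It was 19.4, 17.9 and 19.05 in WT tumors and 29.3, 40.7 and 31.4 in KO tumors, which do not.

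Of the 12 ratio comparisons, 10 had groups that did not overlap. The exceptions were Psmb8 to Psmb5 and Psmb10 to Psmb7 between KO and WT liver. An exact two-sided permutation test of 3 against 3 libraries cannot go below p = 0.1, which those 10 reached (Benjamini-Hochberg adjusted 0.12 over the 12). On the log2 scale the KO minus WT difference in tumors was 1.82 for Psmb8 to Psmb5, 1.76 for Psmb9 to Psmb6 and 0.83 for Psmb10 to Psmb7. In normal liver it was 0.50, 0.69 and -0.27. Together the 3 inducible genes made up 12.4, 15.1 and 13.2% of the FPKM of the 6 catalytic genes in WT livers and 17.7, 12.7 and 18.5% in KO livers. They made up 19.8, 19.3 and 19.7% in WT tumors and 41.1, 55.9 and 33.9% in KO tumors. The share in WT tumors was above that in all 6 normal livers, and its spread was narrow.

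**Figure D3:**
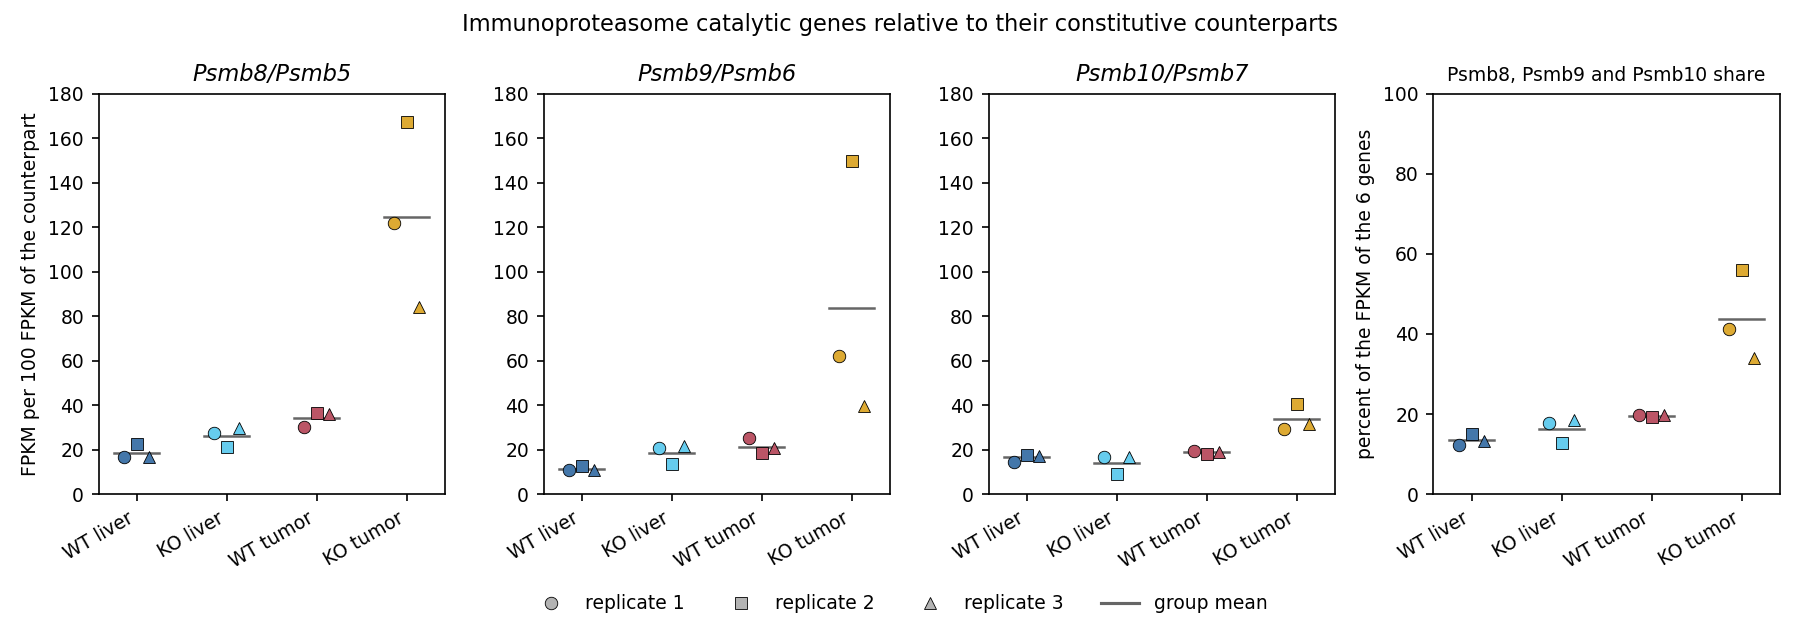
FPKM of each inducible gene per 100 FPKM of its constitutive counterpart in each library, and the percent of the FPKM of the 6 catalytic genes that the inducible genes hold; points are libraries, symbols replicates and lines group means (n = 3). KO tumors range from 84.2 to 167 for Psmb8 to Psmb5, against at most 36.4 elsewhere.

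Tumors of WT mice carried more Psmb9 and less Psme3 than WT normal liver. These 2 genes were the only ones called of 47, 1 in each direction, beside 8.01% of all entries higher and 8.96% lower. This comparison shares the WT livers with the first and the WT tumors with the second, so the results are not independent. Psmb9 had 27.5, 22.5 and 26.1 FPKM in WT tumors against 14.4, 18.2 and 13.5 in WT livers and rose by 0.69 ± 0.15 (adjusted p = 0.0233). Psme3 had 20.01, 25.4 and 26.4 against 33.8, 35.4 and 34.5 and fell by 0.52 ± 0.13 (adjusted p = 0.0377). With no filter on low values neither was called (adjusted p = 0.0543 for Psmb9 and 0.0628 for Psme3), and in 1 fit of all 12 libraries Psmb9 was not (0.272). Psmb8 had 33.8, 45.1 and 39.6 against 24.5, 35.2 and 22.7, overlapping, with a difference of 0.52 ± 0.19 (adjusted p = 0.101). Psmb10 had a difference of -0.24 ± 0.13 (adjusted p = 0.217). Psmg2 (0.31, adjusted p = 0.08) and Psmg1 (0.30, adjusted p = 0.186) had the next largest rises in the mean, and Psmb7 (-0.44, adjusted p = 0.0518) and Psma6 (-0.41, adjusted p = 0.0588) the largest falls after Psme3.

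The constitutive subunits lay lower in WT tumors on the deposited scale, and none was called. Of the 31, 29 were below 0 with a median of -0.23, beside -0.04 over all entries. Every WT tumor lay below every WT liver for 21 of the 47 genes (44.7%), beside 23.8% of all entries, and above for Psmb9, Psmg2 and Psmd10 (6.38%, beside 18.5%). This direction depends on the scaling. Under median-of-ratios scaling 29 of the 31 were again below 0, with a median of -0.24 and 1 called lower, where 1054 of 11671 entries were called lower. Rescaled to a common sum (TPM), the median of all entries moved from -0.04 to 0.23 and that of the 31 subunits to 0.07, with 20 above 0. Relative to all entries the 31 were lower by 0.19 on the deposited scale and by 0.16 under TPM, and higher by 0.02 under quantile normalization. With the length trend removed, 30 of the 31 were below 0, lower than all entries by 0.22, and 6 were called lower. Of all 11302 entries with a length, 1138 were then called lower. Whether these subunits differ from WT liver is therefore not settled by these tables. Psmb9 rose on the deposited scale, under TPM and under quantile normalization (0.69, 0.999 and 0.82). Psme3 was lower under the same 3 (-0.52, -0.23 and -0.39) but of these called on the deposited scale alone. The sum of both Psme3 entries, 25.4, 33.4 and 30.6 FPKM in WT tumors, also lay below every WT liver.

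**Figure D4:**
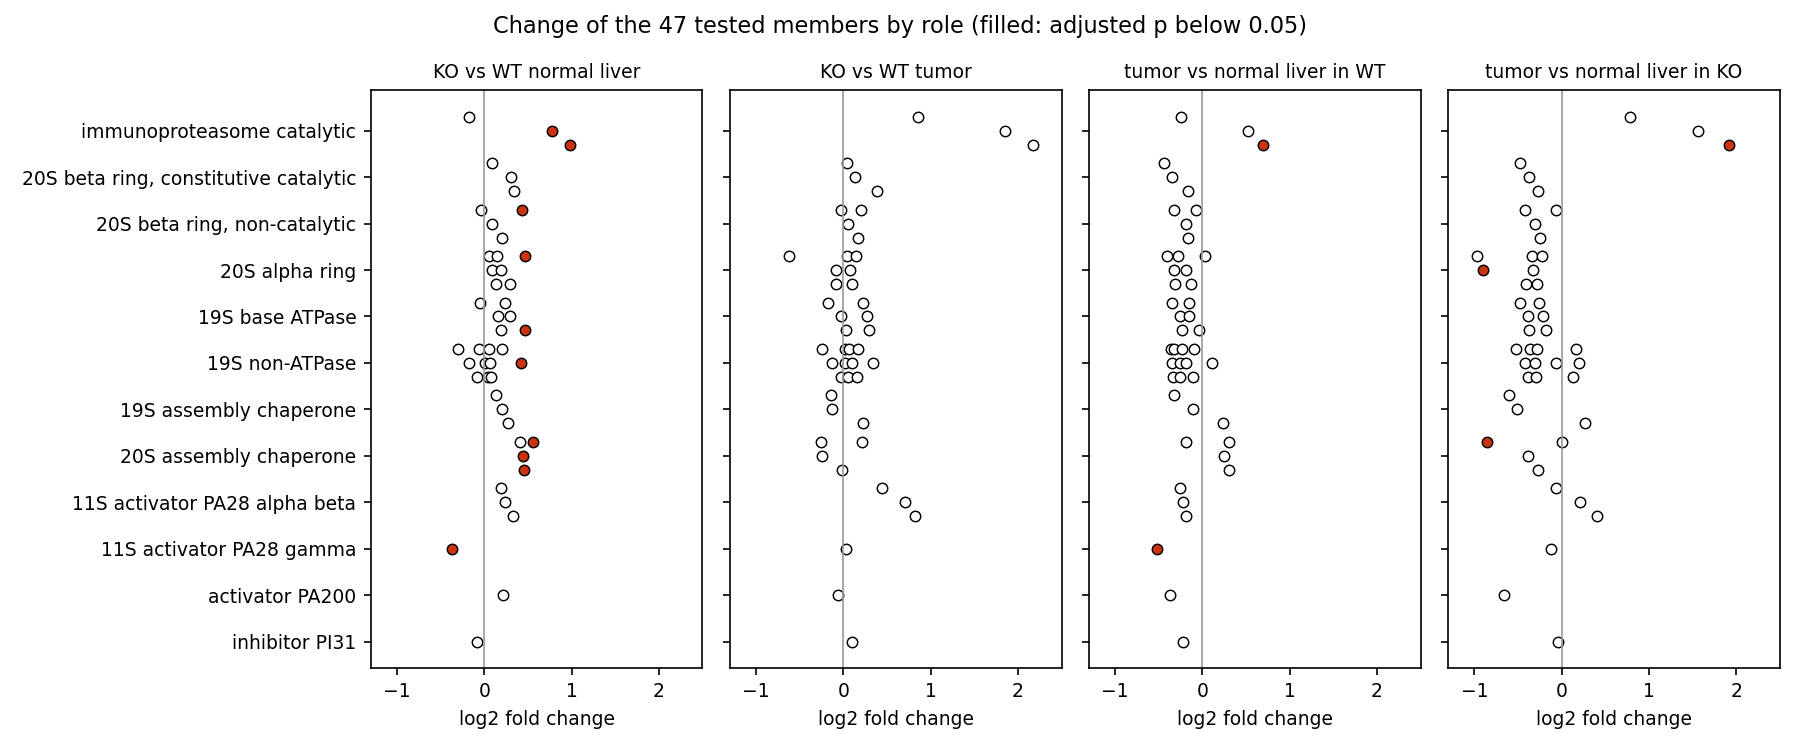
Log2 fold change of each of the 47 tested genes in the 4 comparisons, grouped by role; points are genes, filled where called at an adjusted p below 0.05. The inducible catalytic genes stand above the other roles in both comparisons with KO tumors, and the core chaperones and the alpha ring genes stand above 0 in KO against WT normal liver.

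Between KO tumors and KO normal liver, Psmb8 rose and Psma3 and Psmg3 fell. That is 1 gene higher and 2 lower of 47, beside 9.09% and 5.17% of all entries, and this comparison shares its libraries with those above. Psmb8 had 139, 326 and 129 FPKM in KO tumors against 48.5, 41.6 and 51.5 in KO livers and rose by 1.92 ± 0.37 (adjusted p = 0.0213). Psmb9, with 63.5, 212 and 61.4 against 35.1, 23.5 and 36.9, was apart but not called, at 1.56 ± 0.49 (adjusted p = 0.0719). Psmb10, with 37.4, 52.9 and 50.4 against 34.02, 18.97 and 28.6, was apart and not called either, at 0.79 ± 0.26 (adjusted p = 0.0826). Psma3 had 30.6, 42.6 and 48.3 against 71.7, 90.5 and 65.8 and fell by 0.90 ± 0.24 (adjusted p = 0.0455). Psmg3 had 9.897, 13.7 and 16.4 against 23.7, 20.9 and 29.5 and fell by 0.86 ± 0.23 (adjusted p = 0.0495). The alpha subunit Psma6, with 79.2, 86.9 and 149 against 201, 212 and 181, had the largest difference downward, which was not called, at -0.96 ± 0.28 (adjusted p = 0.0596).

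Of the 31 constitutive subunits, 28 were below 0 between KO tumor and KO liver, with a median of -0.31 beside -0.02 over all entries, and 1 of them, Psma3, was called. Every KO tumor lay below every KO liver for 23 of 47 genes (48.9%), beside 19.8% of all entries, and above for Psmb8, Psmb9, Psmb10 and Psme1 (8.51%, beside 21.3%). Here too the direction depends on the scaling. TPM moved the median of all entries to 0.36 and that of the 31 to 0.12, and quantile normalization moved the 31 to 0.04. Under median-of-ratios scaling 28 were below 0, with a median of -0.36 and 2 called lower, where 800 of 11671 entries were called lower. Relative to all entries the 31 were lower by 0.29 on the deposited scale and 0.24 under TPM, and higher by 0.11 under quantile normalization. With the length trend removed, 27 were below 0 and 2 were called lower, where 817 of 11302 entries were called lower. Psma3 and Psmg3 lost their calls under both TPM and quantile normalization, and kept them with the length trend removed. Psmb8 kept its call under TPM (2.36, adjusted p = 0.00865) and quantile normalization (2.26, adjusted p = 0.0207) and lost it with no filter on low values (adjusted p = 0.0601). Without any of the KO livers or KO tumor 1 no gene was called, and without KO tumor 2 Psmb8 alone (1.49). Of all 11671 entries, 232, 110 and 110 were called higher without KO livers 1, 2 and 3, and 75, 28 and 19 lower. Without KO tumor 1, 402 were called higher and 128 lower, and without KO tumor 2, 770 and 275. Without KO tumor 3 there were 6 calls, Psmb8 and Psmb9 up and Psma3, Psma6, Psmd9 and Psmg3 down. That is 4.26% of the 47 genes up and 8.51% down, where 1578 and 1403 of all 11671 entries were called.

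On the deposited scale, with all 12 libraries, the KO effect was not shown to differ between tumor and normal liver for any proteasome gene. No gene was called in the interaction, beside 2.08% of all entries, and at an unadjusted p below 0.05 there were 4 of 47 in each direction (8.51%), beside 12.6% and 9.69%. The difference of effects was 1.39 ± 0.44 (adjusted p = 0.103) for Psmb8, 1.03 ± 0.30 (adjusted p = 0.0832) for Psmb10 and 0.87 ± 0.55 (adjusted p = 0.379) for Psmb9. Psmb10 was called under quantile normalization (1.07, adjusted p = 0.0495) and with the length trend removed (1.18, adjusted p = 0.0468). Without KO tumor 2 the difference for Psmb9 was 0.29 (adjusted p = 0.57). All 4 core chaperones were below 0, with a median of -0.62 (Psmg4 was at 0.03 with the length trend removed), from Psmg1 (-0.69, adjusted p = 0.121) to Psmg4 (-0.24, adjusted p = 0.604). Psma3 had -0.77 (adjusted p = 0.122) and Psma6 -0.56 (adjusted p = 0.304). Without KO tumor 3, 5 genes were called, Psmb8 (1.63, adjusted p = 0.0359) up and Psma3, Psma6, Psmd9 and Psmg1 down. That is 2.13% of the 47 genes up and 8.51% down, where 682 and 686 of all 11671 entries were called.

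Regulators of the constitutive genes were read from a list of 11 genes around NRF1 (Nfe2l1), the transcription factor that raises proteasome genes when proteasome activity is short. In KO liver 4 of the 11 fell and 1 rose, where 8.77% of all entries fell and 9.33% rose. Ddi2, the protease that cleaves NRF1 into its active form, had 69.8, 80.6 and 83.5 FPKM in WT livers and 33.5, 28.02 and 30.6 in KO livers, a change of -1.31 ± 0.12 (adjusted p = 0.00442). Syvn1, a ubiquitin ligase of the endoplasmic reticulum, changed by -1.32 (adjusted p = 0.0107), its partner Sel1l by -0.92 (adjusted p = 0.0297) and the NRF1 partner Mafk by -1.29 (adjusted p = 0.0161). Mafg, another partner, rose by 0.67 (adjusted p = 0.0287). Nfe2l1 itself had 38.3, 34.7 and 38.3 FPKM in WT livers against 35.3, 32.9 and 33.4, and was not called, at -0.13 (adjusted p = 0.392). In WT tumors Ddi2 was again low, with 25.95, 35.2 and 30.7 FPKM, a fall against WT liver of 1.33 ± 0.14 (adjusted p = 0.00373). Sel1l fell there by 0.88 (adjusted p = 0.0391), where 8.96% of all entries fell. In KO tumors against KO liver Syvn1, Sel1l and Ngly1, the enzyme that removes sugars from NRF1, fell, where 5.17% of all entries fell. Between KO and WT tumors no gene of the list was called.

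Of 17 listed subunits and partners outside the naming rule, Ubqln4, a shuttle for ubiquitin-tagged proteins, rose in KO liver (0.42, adjusted p = 0.0448) and Ubqln2 rose in KO tumors against KO liver (1.39, adjusted p = 0.0245). Each is 1 of 17, where 9.33% and 9.09% of all entries rose. Pomp, the chaperone of core maturation, had 195, 216 and 202 FPKM in WT livers and 219.6, 234 and 210.2 in KO livers and was not called in any comparison. Of 7 genes of ubiquitin and its activating enzymes, Uba7, which activates the ubiquitin-like ISG15, rose in KO tumors against KO liver (1.41, adjusted p = 0.0135) and no other was called.

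Regulators of interferon and NF-kB signalling, which induces Psmb8, Psmb9 and Psmb10, were read from a list with 19 tested genes. The values are RNA levels of these regulators, and the activity of the signalling was not measured. In KO liver none rose and 2 fell, the interferon gamma receptor chain Ifngr2 (-0.70, adjusted p = 0.0386) and Nfkb1 (-1.01, adjusted p = 0.032), with a list median of -0.20. Among all entries 9.33% rose and 8.77% fell there, so 2 of 19 falling is near the share of all entries. Irf1, which acts on the inducible genes, had overlapping groups and was not called (0.05, adjusted p = 0.896). In tumors against liver of the same genotype the receptor chain Ifngr1 rose in WT (1.51, adjusted p = 0.00568) and in KO (1.61, adjusted p = 0.0146), as did Relb. Irf8 (1.36, adjusted p = 0.0106) and Nlrc5 (0.89, adjusted p = 0.048), which drives MHC class I genes, rose in KO tumors. Tnfrsf1a fell in WT tumors (-1.05, adjusted p = 0.038). By genotype, 2 of the 19 rose and 1 fell in WT, beside 8.01% and 8.96% of all entries. In KO 4 rose, beside 9.09%. No gene of this list was called between KO and WT tumors, and in the interaction Ifngr2 was called (1.11, adjusted p = 0.0478).

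A list of 12 genes held those that load peptides made by the proteasome onto MHC class I, with Ubd, a ubiquitin-like tag, added. In KO liver none rose and 1, the chaperone Pdia3, fell (-0.69, adjusted p = 0.0474), beside 9.33% and 8.77% of all entries. Tap1, whose promoter window overlaps that of Psmb9, had 8.98, 11.4 and 5.66 FPKM in WT livers and 15.6, 12.5 and 21.7 in KO livers, apart but not called (0.87, adjusted p = 0.0658). It had 20.4, 15.99 and 18.6 in WT tumors, a rise against WT liver of 1.03 (adjusted p = 0.0272) that Tapbpl, a peptide editor, shared (0.61, adjusted p = 0.0398), and 26.8, 51.97 and 31.3 in KO tumors. Against KO liver, 4 genes rose in KO tumors, beside 9.09% of all entries. These were Ubd (5.40, adjusted p = 0.00698), Tap2 (1.72, adjusted p = 0.0299), Tapbp (1.46, adjusted p = 0.0146) and H2-D1 (1.10, adjusted p = 0.0296). Ubd had 1.05, 1.07 and 2.099 FPKM in WT livers, 1.48, 1.93 and 1.27 in KO livers, 1.199, 12.3 and 18.6 in WT tumors and 154, 203 and 38.1 in KO tumors. None of the 12 was called between KO and WT tumors. There 7 of them had every KO tumor above every WT tumor, beside 13.8% of all entries, and 1 below, beside 10.1%. In the interaction Tapbp was called (1.37, adjusted p = 0.0357), beside 2.08% of all entries.

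The sums of pan-leukocyte, of macrophage, and of stellate and fibroblast markers were high in KO tumors, where Psmb8, Psmb9 and Psmb10 were high. No pan-leukocyte marker was called in KO liver. In bulk tissue, more cells of a type and more RNA per cell cannot be told apart. The 8 pan-leukocyte markers, all detected, summed to between 29.1 and 51.0 FPKM in WT livers, 40.9 and 43.4 in KO livers, 40.2 and 69.4 in WT tumors and 107 and 189 in KO tumors. In KO against WT liver none of the 8 was called (median -0.02). In KO tumors against KO liver all 8 rose (median 1.54), beside 9.09% of all entries, and between KO and WT tumors the median was 1.11 with none called. The 15 macrophage and Kupffer markers summed to between 290 and 461, 282 and 397, 180 and 539, and 623 and 852 FPKM in the same order of groups. Of these 15, 11 were above 0 in KO tumors against KO liver and 13 against WT tumors. The 6 neutrophil markers, 2 of them below 1 FPKM in every library, summed to between 22.6 and 57.4 FPKM in KO tumors. They summed to between 8.96 and 10.1 in WT tumors, 7.06 and 30.6 in WT livers and 8.29 and 40.4 in KO livers. The T and NK cell markers, of which 3 of 15 stayed below 1 FPKM in every library, summed to 13.2, 41.0 and 13.7 FPKM in KO tumors and to between 12.8 and 31.0 in WT tumors. The B and plasma cell markers, 4 of 8 of them below 1 FPKM in every library, were lower in KO tumors (11.8 to 21.6 FPKM) than in WT tumors (28.6 to 63.4). KO tumor 2, the library with the most Psmb8 and Psmb9, also had the highest sums of pan-leukocyte (189 FPKM), T and NK cell (41.0), dendritic (25.01), proliferation (109) and cholangiocyte markers. The last summed to 3530 FPKM there against 564 and 269 in the other KO tumors. Other lists did not peak in KO tumor 2. Its neutrophil sum (22.6 FPKM) was the lowest of the KO tumors, and its B and plasma cell sum (11.8) the lowest of all tumors. KO tumor 3 had higher sums of macrophage (852 against 821) and of stellate and fibroblast markers (212 against 199). The hepatocyte markers without Alb summed to between 24283 and 31024 FPKM in KO liver and to 18603, 12130 and 26802 in KO tumors 1 to 3, of which the first 2 lie below every other library. Single markers did not always follow the sum, which was higher in WT tumors (31953 to 42131) than in WT livers (28149 to 29916). There 2 of the 11 were above 0 (median -0.91), with 5 called lower and 1 higher. In KO against WT liver 2 were above 0 (median -0.33), and in KO tumors against KO liver 1 (median -1.16). In KO liver 2 of 8 stellate and fibroblast markers rose, Dcn (0.98, adjusted p = 0.0331) and Colec11 (0.86, adjusted p = 0.0419), beside 9.33% of all entries. The 8 summed to between 49.1 and 74.7 FPKM in WT livers and 83.6 and 139 in KO livers. In WT tumors they summed to between 72.8 and 82.0, and in KO tumors to between 141 and 212, above every other library. Single markers did not all follow this sum. Against KO liver 4 of the 8 were above 0 in KO tumors (median 0.0036), with 3 called higher, beside 9.09% of all entries. Against WT tumors 7 were above 0 (median 0.62), with none called. The part of leukocytes and other cells in the values of Psmb8, Psmb9, Psmb10 and Psme1 was not tested.

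**Figure D5:**
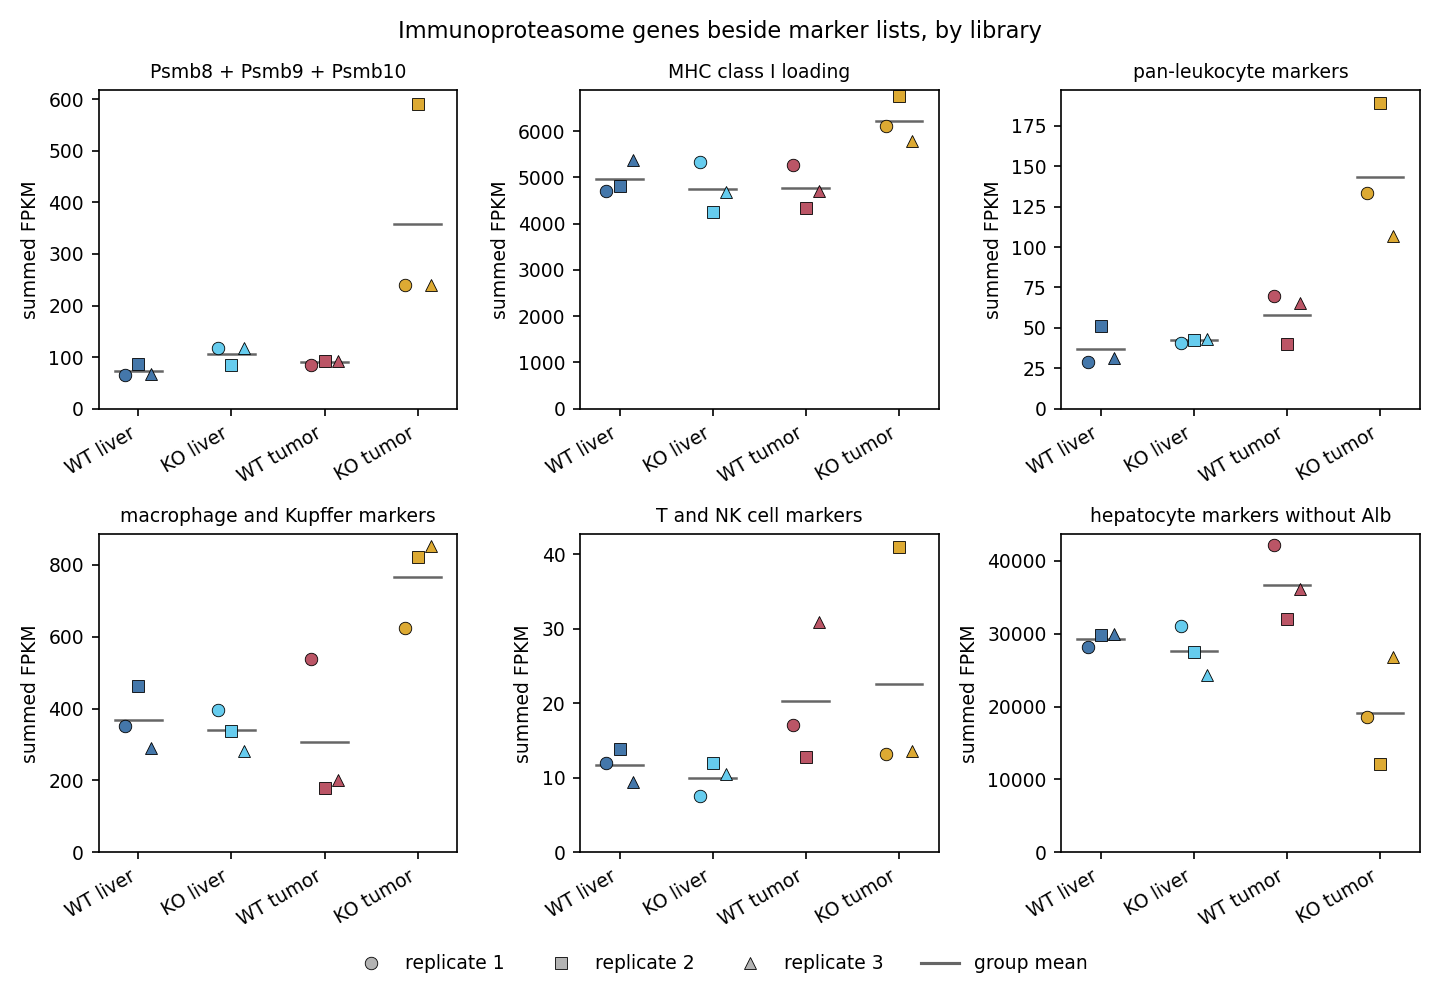
Summed FPKM in each library of Psmb8, Psmb9 and Psmb10, of the MHC class I loading list and of 4 marker lists, by group; points are libraries, symbols replicates and lines group means (n = 3). The pan-leukocyte sum of KO tumors (107 to 189 FPKM) lies above that of every other library (at most 69.4).

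The other 3 genes that matched by name did not pass the filter. Psmb11, the thymus form of the catalytic beta subunit, is listed at 0 in 11 libraries and at 0.007291 FPKM in KO tumor 2. Psma8, the testis form of an alpha subunit, stayed at or below 0.728 FPKM in all but WT tumor 3, which had 4.51. Psmc3ip is no proteasome subunit but a recombination factor named for its binding to Psmc3, and it ranged up to 1.58 FPKM in KO tumor 2.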

How the data were processed

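Polyadenylated RNA of 12 mouse liver libraries was sequenced by a kit without strand information (labels' protocols). The values that the authors deposited are FPKM, in a table for each library, made with TopHat2 2.1.1 and Cufflinks 2.2.1 on mm10, per the submitters' processing notes. Options and annotation were not given in the sources used here. Read depth is unknown, so no counting error is given. Entries were analyzed as log2(FPKM + 1), which understates the change of low genes. Each comparison was fitted on its own 6 libraries, and the interaction on all 12, with limma 3.58.1 in R 4.3.3 (empirical Bayes, variance trend, two-sided, Benjamini-Hochberg over all 11671 tested entries). Ratios of paired subunits were compared with an exact permutation test. The labels do not say that each library is a separate animal, and p-values then cover only the spread among these samples.

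Genes were grouped by role. Named were the catalytic subunits and activators, every gene called in any fit, the largest changes, and from each list the called genes or those with the smallest adjusted p. Members and lists were chosen with earlier results of these data known. Alternatives were pseudocounts, filters, TPM, median-of-ratios and quantile scaling, 1 fit of all libraries, no trend of the variance, a replicate block, removal of the length trend and leaving out each library. A fit limited to entries with a transcript length, trend kept, was added after seeing the data. Positions are from GENCODE vM21 (GRCm38, the same assembly as mm10).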

Additional observations from a re-analysis of the deposited data

Results flagged for a closer look

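Of the proteasome genes below the filter, 2 had a library above the level in normal liver. Psma8, the testis form of an alpha subunit, reached 4.51 FPKM in WT tumor 3 against at most 0.728 in the 6 normal livers. Psmc3ip, a recombination factor that only shares the name, reached 1.58 FPKM in KO tumor 2 against at most 0.639. Neither was tested.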

How the results depend on the processing

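Median changes of the 47 genes are given first and numbers of genes called second. TPM gave medians of 0.0768 (WT tumor against liver), 0.14 (KO tumor against liver) and 0.0936 (interaction), all of the opposite sign. It gave 5 calls in each tumor against liver comparison, all higher (10.6% of the 47 genes). Of all 11671 entries TPM called 1660 higher and 408 lower in WT, and 1791 and 281 in KO. Quantile normalization gave 0.12 in KO against WT liver, -0.0094 in WT and 0.0439 in KO tumor against liver, and 0.0481 with 1 call in the interaction. It called 118 of 11671 entries higher and 138 lower in the interaction. Median-of-ratios scaling gave -0.0021 between KO and WT tumors and 5 calls in KO tumor against liver. It called 1015 of 11671 entries higher and 800 lower in the latter. Removal of the length trend gave 0.0582 in KO against WT liver and -0.0199 between tumors, with 3, 8, 7 and 1 calls in KO against WT liver, WT tumor against liver, KO tumor against liver and the interaction. In that order, 744, 969, 993 and 114 of 11302 entries were called higher and 736, 1138, 817 and 119 lower. With no filter there were 4 calls in KO against WT liver and 1 in KO tumor against liver, and with a mean FPKM of 5 there were 4 in WT and 1 in KO tumor against liver. Of all 18825 entries with no filter, 495 and 393 were called higher and 373 and 150 lower in these comparisons. Of 6963 entries with a mean of 5, 387 and 339 were called higher and 876 and 331 lower. A joint fit of all libraries gave 1, 5, 1 and 10 calls in KO against WT liver, KO against WT tumor, WT and KO tumor against liver. In the same order it called 527, 697, 589 and 1758 of all 11671 entries higher and 617, 320, 516 and 1582 lower.

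Deviations from the group means of samples with the same replicate number had correlations from -0.28 to 0.35, the highest for replicate 1 between KO and WT tumors. The best match was the sample's own number in 2 of 6 cases in that comparison and in 0 of 6 in each other one. With 3 samples per group this cannot settle whether the numbers pair samples. The replicate block gave 0 calls in KO against WT liver, 0 in WT tumor against liver and 1, Psmb8, in KO tumor against liver, and none elsewhere. In these 3 comparisons it called 91, 606 and 907 of all 11671 entries higher and 62, 629 and 513 lower. Between tumors it called none of all entries, and in the interaction 60 higher and 54 lower.

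Leaving out each library gave 0 to 3 calls in KO against WT liver, 0 to 1 between tumors, 0 to 2 in WT tumor against liver, 0 to 6 in KO tumor against liver and 0 to 5 in the interaction. Of all 11671 entries, 132 to 1082 were called higher and 108 to 882 lower in KO against WT liver. Between tumors 0 to 163 were higher and 0 to 103 lower. The ranges were 242 to 1030 and 212 to 1104 in WT tumor against liver. They were 110 to 1578 and 19 to 1403 in KO, and 5 to 682 and 2 to 686 in the interaction. The median of the proteasome genes ranged from -0.13 to 0.0153 in the interaction, with 0.0153 without WT tumor 3 and 0.0141 without KO tumor 1. The log2 ratio of Psmb10 to Psmb7 in KO against WT liver ranged from -0.42 to 0.0147, the latter without KO liver 2. These fits hold fewer samples, and the cause of the other differences was not tested.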
